A study of Mus musculus with 39 samples.

Results

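The genes described here are 9 genes of the Wolffian duct and of tubular epithelium: Pax2, Pax8, Lhx1, Emx2, Cdh1, Epcam, Cdh16, Aqp2 and Sox17. They were taken by symbol from the 21561 Ensembl genes that both deposited count tables hold, and all 9 were found. Bulk RNA sequencing of male C57BL/6J mice was analysed, with 39 libraries in 13 groups of 3. WT mice were compared with INSL3-KI mice, homozygous animals in which the minke whale INSL3 coding sequence replaces the mouse gene at its own locus under native regulatory elements, and with INSL3-KO mice, which carry an INSL3 knockout. The gubernaculum, the ligament that guides the descending testis, was sequenced at postnatal day 8 (P8) from all 3 genotypes and at P23 from WT and INSL3-KI animals. The testis was sequenced at P8 and P23 for each genotype and at P40 for WT and INSL3-KI only. The INSL3-KI line came from targeted embryonic stem cell clones whose neomycin cassette was removed with Cre, so it represents 1 designed allele. Whether a library pooled several animals is not given in the sources used here, and p-values therefore measure the spread between libraries only.

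The Wolffian, or mesonephric, duct is the embryonic tube that gives rise in males to the epididymis, vas deferens and seminal vesicle. It also sends out the ureteric bud from which the collecting ducts of the kidney form. Pax2 and Pax8 are paired box transcription factors needed for the duct to form, Lhx1 is a LIM homeobox factor needed for its extension, and Emx2 is a homeobox factor of the urogenital epithelium. Cdh1 encodes E-cadherin, the adhesion molecule of epithelial junctions, and Epcam encodes a surface adhesion molecule found on most simple epithelia. Cdh16 encodes Ksp-cadherin of kidney and genital duct tubules, and Aqp2 encodes the vasopressin-regulated water channel of the collecting duct, also present in the vas deferens. Sox17 is an SRY-box factor of endoderm and of arterial endothelium. The gubernaculum itself is built of mesenchyme and striated muscle. In bulk tissue, fewer cells of a type and less RNA per cell cannot be told apart.

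The 9 genes lie on 7 chromosomes of the GRCm38 build, with gene models from GENCODE vM21. Pax2 spans chr19:44756045-44837871 and Emx2 chr19:59458372-59465357, both on the plus strand. Pax8 lies at chr2:24420560-24475599 and Lhx1 at chr11:84518284-84525535, both on the minus strand. Cdh1 spans chr8:106603351-106670246 on the plus strand, and Cdh16 lies on the same chromosome at chr8:104601911-104624396 on the minus strand. Epcam is at chr17:87635979-87651129 and Aqp2 at chr15:99579055-99584547, both on the plus strand, and Sox17 is at chr1:4490931-4497354 on the minus strand. An antisense transcript overlaps 264 exonic bases of Emx2, 367 of Pax8 and 804 of Sox17, and since the sources used here do not say whether counting used strand, reads of either strand cannot be told apart there.

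RefSeq promoter windows of the same build (GRCm38.p6), each from 250 bases before to 50 after an annotated start, were found for 6 of the 9 genes. They are shown for the genes that were higher together in both mutants and had a window, which Cdh1 and Cdh16 did not. Whether these starts have a part in the shared pattern was not tested. Capitals mark matches on either strand to the CRE core TGACG, the GATA motif AGATAA, the CCAAT box or the grainyhead-like motif AACCNGTT. TGACG is contained in the full CRE, and no 2 matches share a base in the windows printed.

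Aqp2, chr15:99578806-99579105, plus strand: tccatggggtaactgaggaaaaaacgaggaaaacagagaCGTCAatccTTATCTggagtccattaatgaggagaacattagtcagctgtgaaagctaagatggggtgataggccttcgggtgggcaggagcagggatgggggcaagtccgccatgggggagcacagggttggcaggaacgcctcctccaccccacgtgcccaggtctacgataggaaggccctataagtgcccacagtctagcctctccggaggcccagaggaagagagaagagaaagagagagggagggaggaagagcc
Pax8, chr2:24475550-24475849, minus strand: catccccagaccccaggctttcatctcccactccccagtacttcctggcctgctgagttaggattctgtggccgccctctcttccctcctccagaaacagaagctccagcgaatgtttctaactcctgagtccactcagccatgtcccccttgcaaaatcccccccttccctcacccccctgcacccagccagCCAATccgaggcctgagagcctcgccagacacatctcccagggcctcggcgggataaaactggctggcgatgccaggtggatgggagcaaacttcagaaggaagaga
Pax2, second of 3 starts, chr19:44755502-44755801, plus strand: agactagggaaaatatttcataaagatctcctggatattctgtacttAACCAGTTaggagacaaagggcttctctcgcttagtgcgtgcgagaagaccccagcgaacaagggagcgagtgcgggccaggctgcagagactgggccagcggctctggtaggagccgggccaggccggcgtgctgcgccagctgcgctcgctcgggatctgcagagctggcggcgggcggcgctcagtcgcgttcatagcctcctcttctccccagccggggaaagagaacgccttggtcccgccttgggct
Emx2, chr19:59458440-59458739, plus strand: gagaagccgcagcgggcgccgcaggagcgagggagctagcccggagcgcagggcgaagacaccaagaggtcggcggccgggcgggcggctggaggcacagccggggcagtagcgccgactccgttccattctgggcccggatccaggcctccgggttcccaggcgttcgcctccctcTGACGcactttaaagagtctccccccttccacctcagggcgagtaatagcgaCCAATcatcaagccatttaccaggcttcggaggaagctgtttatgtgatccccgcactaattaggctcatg
Epcam, chr17:87635729-87636028, plus strand: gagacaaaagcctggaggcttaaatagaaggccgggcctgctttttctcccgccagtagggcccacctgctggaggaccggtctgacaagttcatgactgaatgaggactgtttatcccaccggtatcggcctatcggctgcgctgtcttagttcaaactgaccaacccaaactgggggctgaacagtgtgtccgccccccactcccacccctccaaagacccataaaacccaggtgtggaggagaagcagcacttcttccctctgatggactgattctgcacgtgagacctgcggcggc

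The CRE core stood at -211 from the Aqp2 start and at -73 from the Emx2 start, against a share of 20.8% of all 32851 promoter windows of this length. AGATAA lay at -202 from the Aqp2 start and is held by 11.2% of windows. A CCAAT box lay at -57 from the Pax8 start and at -21 from the Emx2 start, and 37.4% of windows hold one. The window of Lhx1, not printed, also held the CRE core, at -50, and a CCAAT box, at -68. Lhx1 did not rise with these genes in INSL3-KI, so neither motif is particular to the genes that rose. AACCNGTT was found at -203 from the Pax2 start shown, against 2.09% of all windows. The windows of the other Pax2 starts, which are not printed, held none of the 6 motifs searched. Among the 8 windows found for these genes and Lhx1, AACCNGTT was in 1 only, so the match describes that start and not Pax2 as a whole. The full CRE TGACGTCA and the letters TATAAA were in none of the windows of these genes, against shares of 1.79% and 13.6%. The Epcam window held none of the 6 motifs searched. A match is a string of letters only, and no binding was measured.

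Total counts of the gubernaculum libraries were between 29861447 and 45260372, and the genes shared by both tables held 94.16% to 97.86% of the counts of each library. INSL3-KO libraries and the WT P23 testis libraries stood in the second table and all others in the first, so that in every P8 comparison of INSL3-KO with another genotype, and in P23 testis of INSL3-KI against WT, the table and the genotype cannot be told apart. Insl3 itself was at 0 counts in the P8 gubernaculum of both mutants, against 87, 25 and 29 counts in WT. In P8 testis it was at 85.3, 91.5 and 72.8 CPM in WT (counts of a gene scaled to a common total of the shared genes) and at 0.95, 0.469 and 0.721 CPM in INSL3-KI. The libraries labelled INSL3-KO still held 22.7, 22.8 and 17.2 CPM in P8 testis, below WT but above INSL3-KI, which goes against the label in part, while in P23 testis they held 0, 5 and 0 counts. In P23 gubernaculum Insl3 was low in both genotypes, at 9 to 27 counts in WT and 0 to 28 in INSL3-KI, so it does not separate them there. INSL3-KI testis at P40 held 11.8 to 14.6 CPM of Insl3, against 559 to 734 CPM in WT. Rxfp2, the INSL3 receptor gene, was at 36.3, 45.9 and 40.7 CPM in WT P8 gubernaculum, at 1.84, 1.76 and 2.31 CPM in INSL3-KI and at 11.1, 10.1 and 32.8 CPM in INSL3-KO.

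The gubernaculum label was checked against 13 marker genes. Summed over them, WT P8 libraries held 29941 to 31885 CPM, INSL3-KI 18399 to 20374 CPM and INSL3-KO 16484 to 17659 CPM. Pax7, the satellite cell factor, was at 44.5 ± 3.31 CPM in WT (SD, n = 3), at 0 in every INSL3-KI library and at 6.46 ± 0.354 CPM in INSL3-KO. Myog, which drives myoblast differentiation, was at 362 ± 47.4 CPM in WT, at 0.0746 ± 0.0652 CPM in INSL3-KI and at 52.1 ± 3.12 CPM in INSL3-KO (SD, n = 3). Against WT, 7 of the 13 markers fell and 2 rose in INSL3-KI, where 9.7% of all genes were lower and 14.4% higher. In INSL3-KO 6 fell and 2 rose, where 15.2% were lower and 15.5% higher. Pax7 and Myog had the largest changes among the markers that passed in both mutants, and the other markers changed less or did not pass. At P23 the sum of the 13 markers was 47918 to 55366 CPM in WT and 4316 to 13308 CPM in INSL3-KI. The latter range overlapped the 3828 to 10307 CPM of WT P8 testis. At that age 2 gubernaculum libraries also stood apart from their groups. INSL3-KI replicate 2 held 104 CPM summed over the 9 duct genes, 101 CPM of it from Sox17, against 1095 and 1704 CPM in replicates 1 and 3. WT replicate 3 held 171 CPM, against 40.4 and 43.9 CPM in replicates 1 and 2. The P23 comparison of INSL3-KI with WT is therefore also described without these 2 libraries.

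**Figure D1:**
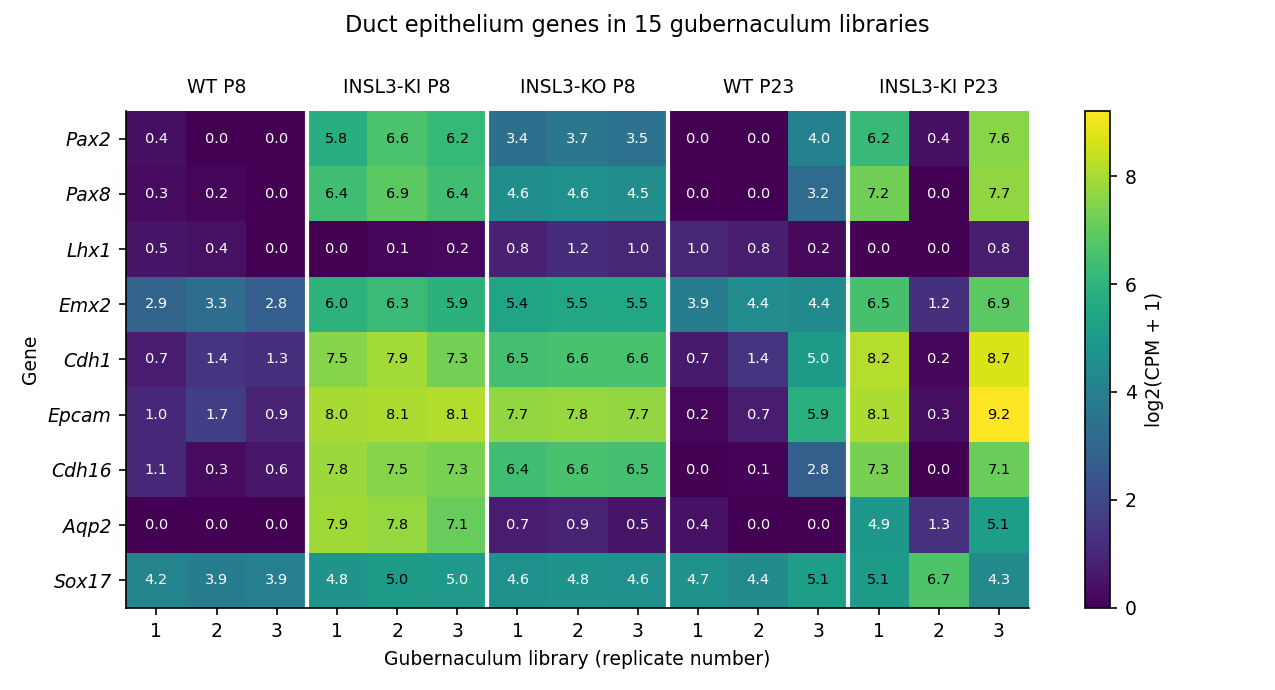
Level of each duct gene (rows) in each of the 15 gubernaculum libraries (columns, by replicate), as log2(CPM + 1) printed in each cell and shown by colour. In the P8 mutants 7 genes are raised in every library, Lhx1 and Sox17 follow other patterns, and at P23 INSL3-KI replicate 2 lacks what replicates 1 and 3 show.

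At P8, most of these genes were close to 0 in WT gubernaculum and abundant in the gubernaculum of both mutants. In INSL3-KI against WT, 7 of the 9 genes passed the test (edgeR quasi-likelihood test, adjusted p under 0.01 and at least 2-fold), all 7 higher, where 24.1% of the 15500 genes tested passed, 14.4% higher and 9.7% lower. In INSL3-KO against WT the count was also 7 of 9, all higher, where 30.7% of 15609 genes passed, 15.5% higher and 15.2% lower. The 7 genes were Pax2, Pax8, Emx2, Cdh1, Epcam, Cdh16 and Aqp2 in both comparisons, which share the WT libraries. Those at or near 0 in WT, such as Pax2, Pax8 and Aqp2, entered the test only through their counts in the mutant. They could not come out lower, so their direction is a description. The median log2 fold change of the genes tested reached 7.64 for INSL3-KI and 6.56 for INSL3-KO (6.08 with Aqp2 at its bound), against 0.02 and 0.03 over all genes. When all 5 gubernaculum groups shared 1 estimate of the spread, 2 genes passed in INSL3-KI (Aqp2 and Cdh16), against 15.4% of all genes and 8.1% higher, and 0 in INSL3-KO, against 21.1% and 9.34%. With the 2 P23 libraries that stood apart left out of that fit, 7 were past the thresholds in each. Those libraries were picked by the level of these same genes after seeing the data, so this is a description with no test.

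Among the transcription factors, Pax2 was at 0.292, 0 and 0 CPM in the WT P8 libraries, at 55.5, 96.8 and 70.5 CPM in INSL3-KI and at 9.52, 11.8 and 10.2 CPM in INSL3-KO. The 3 groups did not overlap, and INSL3-KI stood highest. Against WT, the log2 fold change came to 9.24 for INSL3-KI (SE 0.62, adjusted p = 1e-05) and 6.56 for INSL3-KO (SE 0.87, adjusted p = 0.00046). The size of both rests on the 10 counts of WT replicate 1, since without it WT Pax2 was at 0 and the fitted values moved to 14.11 and 11.60, which depend on the prior count and are no bounds. Pax8, its paralog, showed the same order, with 0.205, 0.112 and 0 CPM in WT, 81.7, 116 and 81.9 CPM in INSL3-KI and 23.3, 23.7 and 21.9 CPM in INSL3-KO. Its log2 fold changes were 9.43 (SE 0.43, adjusted p = 1.4e-06) and 7.56 (SE 0.50, adjusted p = 1.7e-05). Emx2 differed from the paired box genes in that WT gubernaculum already held 6.70, 8.87 and 5.74 CPM. It was at 61.0, 76.0 and 59.1 CPM in INSL3-KI and at 40.2, 44.0 and 43.9 CPM in INSL3-KO. The rise of Emx2 was accordingly smaller on the log2 scale, 2.89 (SE 0.19, adjusted p = 9.2e-06) in INSL3-KI and 2.42 (SE 0.16, adjusted p = 1.8e-05) in INSL3-KO.

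Lhx1 did not rise with the other duct factors in INSL3-KI. It was close to the detection limit in every gubernaculum library, with 15, 12 and 0 counts in WT P8, 0, 3 and 4 counts in INSL3-KI and 29, 55 and 41 counts in INSL3-KO. In INSL3-KI against WT it did not reach the minimum count for testing. In INSL3-KO its ranges lay above WT, but the difference did not pass (log2 fold change 1.79, SE 0.87, adjusted p = 0.1).

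The epithelial adhesion genes were abundant in both mutants. Cdh1 was at 0.614, 1.59 and 1.39 CPM in WT, at 182, 241 and 155 CPM in INSL3-KI and at 88.3, 93.0 and 93.9 CPM in INSL3-KO. Its groups were fully separated, with log2 fold changes of 7.01 (SE 0.33, adjusted p = 1.7e-06) and 6.08 (SE 0.28, adjusted p = 3.7e-06). Epcam was at 1.05, 2.29 and 0.841 CPM in WT, at 255, 268 and 280 CPM in INSL3-KI and at 210, 220 and 210 CPM in INSL3-KO. Its rise was of like size in both mutants, 7.26 (SE 0.32, adjusted p = 1.2e-06) in INSL3-KI and 7.08 (SE 0.34, adjusted p = 4.2e-06) in INSL3-KO. Cdh16, the tubule cadherin, was at 1.08, 0.195 and 0.493 CPM in WT, at 224, 183 and 161 CPM in INSL3-KI and at 83.0, 93.0 and 87.5 CPM in INSL3-KO. The log2 fold changes of Cdh16 were 8.01 (SE 0.40, adjusted p = 2.1e-06) and 7.05 (SE 0.40, adjusted p = 8.6e-06).

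Aqp2 showed the widest gap between the mutants. No read of Aqp2 was counted in any WT P8 gubernaculum library, while INSL3-KI held 235, 215 and 132 CPM and INSL3-KO only 0.617, 0.910 and 0.449 CPM, from 23, 39 and 19 counts. Against a floor of 3 counts per WT library, mean Aqp2 was at least 2254-fold higher in INSL3-KI (adjusted p = 5.7e-06) and at least 7.65-fold higher in INSL3-KO (adjusted p = 0.0021). For the lowest library of each mutant the bounds were 1504-fold and 5.12-fold. The call in INSL3-KO was lost without INSL3-KO replicate 1 (adjusted p = 0.011) or replicate 2 (adjusted p = 0.014), and with the replicate number as a block (adjusted p = 0.015).

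Sox17, the endothelial and endodermal factor, was the only member expressed at an appreciable level beside Emx2 in WT gubernaculum, at 17.0, 13.5 and 14.3 CPM. It was at 26.0, 31.2 and 29.98 CPM in INSL3-KI and at 23.9, 26.5 and 24.0 CPM in INSL3-KO. Both mutants lay above WT without overlap, but the changes stayed under 2-fold, at 0.64 (SE 0.14, adjusted p = 0.0053) and 0.56 (SE 0.11, adjusted p = 0.0032) on the log2 scale.

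**Figure D2:**
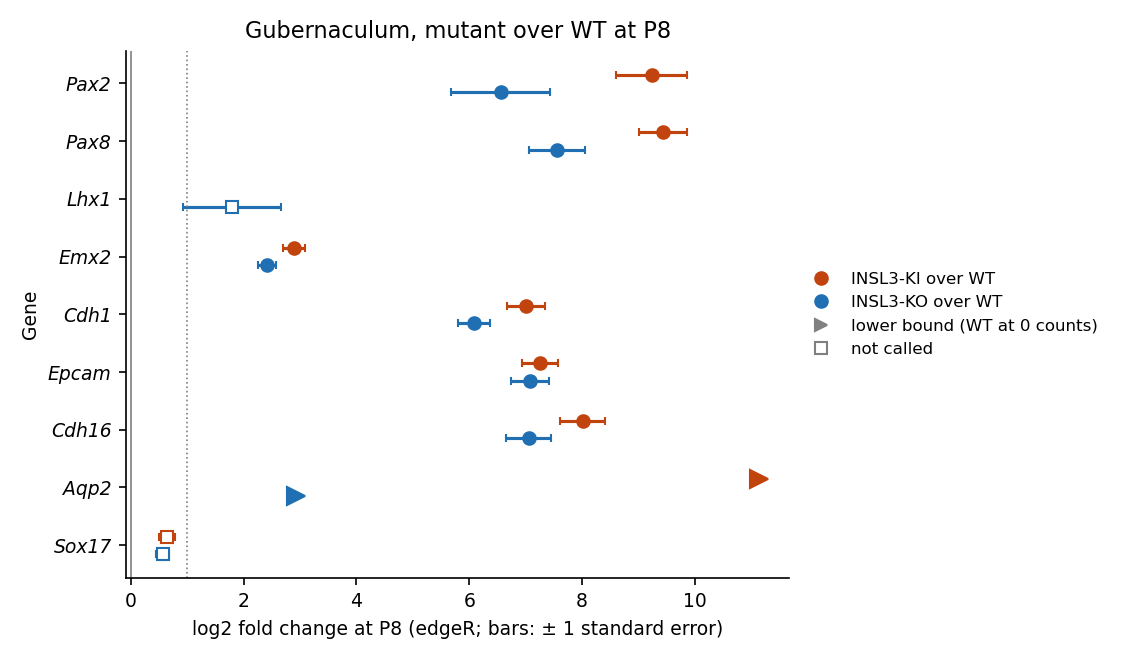
Log2 fold change of each duct gene in P8 gubernaculum, INSL3-KI over WT (red) and INSL3-KO over WT (blue), from the edgeR fits with bars of 1 standard error; open squares did not pass the thresholds, triangles are lower bounds for Aqp2, whose WT libraries were at 0 counts, and the dotted line marks 2-fold. Pax2 and Pax8 reach 9.24 and 9.43 in INSL3-KI, Sox17 stays under 1, and Lhx1 in INSL3-KI was not tested.

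Set side by side, the mutants differed in 4 of the 9 genes, where 22.5% of 15642 genes tested differed, 11.9% being higher and 10.5% lower in INSL3-KI. Pax2, Pax8 and Aqp2 had the higher level in INSL3-KI, by 2.64 (SE 0.21, adjusted p = 6.2e-05), 1.84 (SE 0.15, adjusted p = 6.3e-05) and 8.01 (SE 0.34, adjusted p = 6.6e-06) on the log2 scale. Lhx1 was lower, by -3.84 (SE 0.72, adjusted p = 0.0029), from the few counts given above, and its call was lost without INSL3-KI replicate 2 (adjusted p = 0.011) or INSL3-KO replicate 2 (adjusted p = 0.015). The 2 cadherin genes stayed just under the 2-fold threshold, Cdh1 at 0.89 (SE 0.15, adjusted p = 0.002) and Cdh16 at 0.92 (SE 0.12, adjusted p = 0.00054). Both passed it when only library size was scaled (1.07 and 1.11) and without INSL3-KI replicate 3 (1.02 for each). Epcam (0.14, SE 0.06, adjusted p = 0.082), Emx2 (0.43, adjusted p = 0.011) and Sox17 (0.05, SE 0.10, adjusted p = 0.69) did not pass. In the single fit over all gubernaculum groups, 1 gene (Aqp2) differed, against 14.2% of all genes and 7.37% higher. The genotypes compared here also stood in different tables. Of the marker lists, 8 of 28 junction genes were higher in INSL3-KI, and 6 of 8 mesothelial genes and 7 of 13 gubernaculum markers were lower, with 0 of each in the other direction, and the part of these lists in the differences between the mutants was not tested.

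The levels were also set against those of Cdh1, the epithelial adhesion gene of the same library. Per Cdh1 count, Aqp2 was at 1.01 ± 0.243 in INSL3-KI and at 0.00719 ± 0.00251 in INSL3-KO (SD, n = 3), 141 times higher in INSL3-KI. Pax2 was at 0.387 ± 0.0759 against 0.114 ± 0.0107, and Pax8 at 0.486 ± 0.0394 against 0.251 ± 0.0155. For both paired box genes the INSL3-KI values lay above those of INSL3-KO, without overlap between groups. Epcam went the other way, at 1.44 ± 0.345 in INSL3-KI and 2.33 ± 0.0781 in INSL3-KO, as did Emx2, at 0.343 ± 0.0330 and 0.465 ± 0.00936. Cdh16 was at 1.01 ± 0.235 and 0.958 ± 0.0373 (two-sided exact permutation test, p = 0.9). For the other 5 genes the exact test gave p = 0.1, the smallest that 3 against 3 libraries allow, so none of these ratios could pass.

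**Figure D3:**
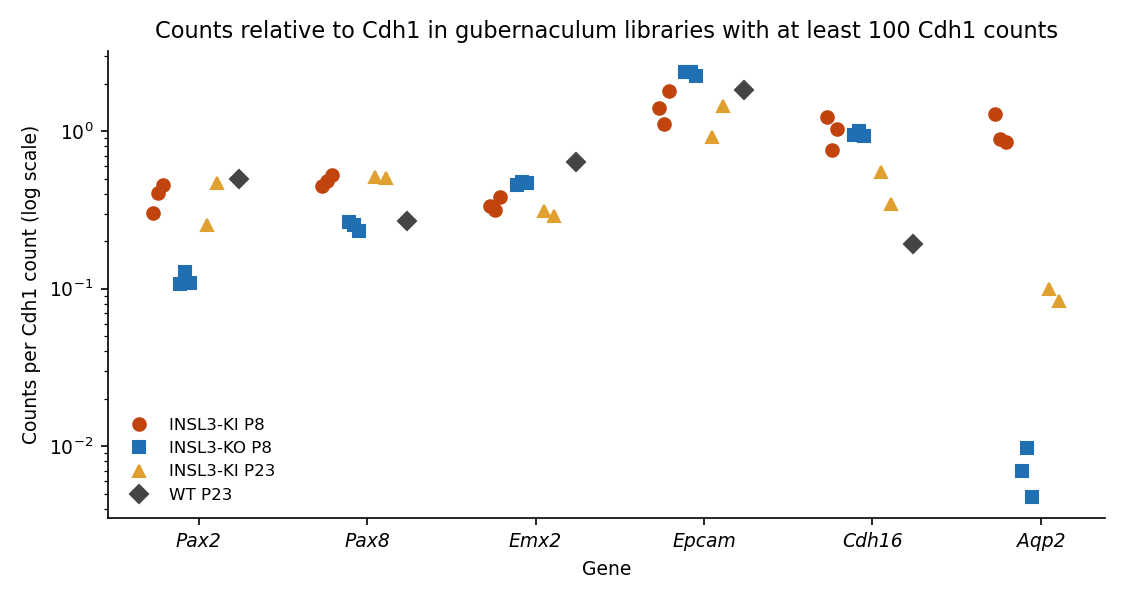
Counts of 6 duct genes per Cdh1 count (log axis) in each gubernaculum library with at least 100 Cdh1 counts, by group; values of 0 are not drawn, which leaves out Aqp2 in WT P23 replicate 3. Aqp2 spans from 0.00719 on average in INSL3-KO to 1.01 in INSL3-KI at P8, while Cdh16 averages 1.01 and 0.958 there.

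Between genes, levels were compared per length, as the deposited FPKM values, which divide by gene length and library total, within a group. In INSL3-KI P8 gubernaculum Epcam (144 FPKM) and Aqp2 (129 FPKM) were highest and overlapped. They were followed by Cdh16 (62.3 FPKM), then Cdh1 (41.1 FPKM) and Pax8 (34.7 FPKM), which overlapped, then Emx2 (21.2 FPKM) and Pax2 (18.5 FPKM), which also overlapped, and by Sox17 (11.4 FPKM). In INSL3-KO the order was Epcam (96.6 FPKM), Cdh16 (27.0 FPKM), Cdh1 (19.1 FPKM) and Emx2 (13.5 FPKM), with Pax8 (8.44 FPKM) and Sox17 (7.75 FPKM) overlapping, and Pax2 at 2.85 FPKM. Aqp2, second in INSL3-KI, came next to last there (0.423 FPKM) and overlapped Lhx1 (0.241 FPKM). In WT, Sox17 (5.54 FPKM) and Emx2 (2.29 FPKM) led and each other member was under 1 FPKM.

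The other genes of the duct and of its derivatives were described by lists. Their counts against WT are to be read beside the shares of all genes, 14.4% higher and 9.7% lower in INSL3-KI and 15.5% and 15.2% in INSL3-KO. In each list, genes at or near 0 in WT entered the test only through the mutant and could not come out lower. In INSL3-KI against WT, 26 of the 28 genes of epithelial junctions and polarity were higher and 0 lower (median log2 fold change 5.21, against 0.02 over all genes), and in INSL3-KO 25 of 28. Cldn8, a claudin of tight junctions, was at 0.0483 ± 0.0837 CPM in WT, at 146 ± 27.2 CPM in INSL3-KI and at 114 ± 5.50 CPM in INSL3-KO (SD, n = 3). Of the epithelial regulators and simple keratins, 11 of 13 were higher in each mutant, among them Ehf, an epithelial ETS factor (0.0585 ± 0.101 CPM in WT, 120 ± 16.1 CPM in INSL3-KI, 73.5 ± 2.21 CPM in INSL3-KO). The list of duct transcription factors was mixed, with 7 higher and 1 lower of 11 tested in INSL3-KI and 6 higher and 1 lower of 14 in INSL3-KO. Gata3, a zinc finger factor of the duct, was at 0.656 ± 0.254 CPM in WT, 106 ± 18.7 CPM in INSL3-KI and 28.2 ± 3.60 CPM in INSL3-KO (SD, n = 3). Of the mutants, INSL3-KI held more of it, by 1.72 (SE 0.15, adjusted p = 9e-05) on the log2 scale.

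Of the duct signalling genes, 5 were higher and 3 lower of 15 in INSL3-KI, and 4 higher and 7 lower in INSL3-KO. Fgfr2, the receptor of epithelial fibroblast growth factor signals, was at 2.89 ± 0.716 CPM in WT, 341 ± 17.4 CPM in INSL3-KI and 185 ± 9.33 CPM in INSL3-KO (SD, n = 3). Ret, the receptor of the ureteric bud, differed between the mutants (16.8 ± 2.02 CPM in INSL3-KI against 4.47 ± 0.426 CPM in INSL3-KO, log2 fold change 1.72, SE 0.15, adjusted p = 7.9e-05). Tubular transport genes were higher in 16 and lower in 1 of 21 tested in INSL3-KI, and higher in 8 and lower in 1 of 18 in INSL3-KO. Foxi1, the factor of proton-secreting cells, was at 0 in every WT library, at 11.4 ± 1.31 CPM in INSL3-KI and at 8.82 ± 1.55 CPM in INSL3-KO. Of 21 tubular transport genes tested between the mutants, 10 were higher and 3 lower in INSL3-KI, where 11.9% of all genes were higher and 10.5% lower. Aqp3 and Aqp5 shared the gap of Aqp2 between the mutants. Aqp3, a basolateral water channel, was at 25.7 ± 11.1 CPM in INSL3-KI and 0.143 ± 0.0852 CPM in INSL3-KO (log2 fold change 7.31, SE 0.55, adjusted p = 4.9e-05), and Aqp5 at 9.43 ± 4.68 and 0.438 ± 0.142 CPM (4.24, SE 0.49, adjusted p = 0.00031).

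Genes of the adult male ducts were present as well. Of the 27 epididymal secretion genes listed, 9 had enough counts for testing in INSL3-KI against WT and 12 in INSL3-KO against WT. Of these, 6 and 8 were higher and 0 lower. Genes at or near 0 in WT entered the test only through their counts in the mutant and could not come out lower, so the direction is a description. Spink8 was at 0 in WT, at 1295 ± 429 CPM in INSL3-KI and at 661 ± 29.4 CPM in INSL3-KO, and Crisp1, a sperm-coating protein of the epididymis, at 0.0290 ± 0.0502, 1208 ± 569 and 1074 ± 59.9 CPM (SD, n = 3). The same holds for the 14 vas deferens and accessory gland genes, summed to at most 0.585 CPM in WT. Of them 4 of 5 tested were higher in INSL3-KI and 6 of 7 in INSL3-KO. Akr1b7, an aldo-keto reductase of the vas deferens, was at 0.0195 ± 0.0338 CPM in WT, 1526 ± 673 CPM in INSL3-KI and 154 ± 3.09 CPM in INSL3-KO, and differed between the mutants by 3.13 (SE 0.30, adjusted p = 0.00012) on the log2 scale. It was the only 1 of 7 genes tested in its list to differ between the mutants, and the list median was -0.43. Of 14 epididymal genes tested between the mutants, 1 was higher and 2 lower in INSL3-KI (median -0.80). Over all genes 11.9% were higher and 10.5% lower. Per Cdh1 count Akr1b7 was at 7.73 ± 1.84 in INSL3-KI and 1.68 ± 0.0601 in INSL3-KO (two-sided exact permutation test, p = 0.1, the smallest possible), while Spink8 was at 6.65 ± 0.912 and 7.21 ± 0.201 (p = 0.5). The summed epididymal list reached 1820, 3837 and 2268 CPM in INSL3-KI and 1796, 1848 and 1926 CPM in INSL3-KO, against at most 4.27 CPM in WT. Most of the mutant sums came from Spink8 and Crisp1. Nephron segment genes, which mark the kidney tubule itself, summed to at most 1.78 CPM in any gubernaculum library.

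Lists of other tissues were counted in the same way, to be read against the 14.4% higher and 9.7% lower of all genes in INSL3-KI and the 15.5% and 15.2% in INSL3-KO. Endothelial genes were higher in 4 of 19 in INSL3-KI and in 7 of 19 in INSL3-KO, mesothelial genes lower in 1 of 8 in INSL3-KI and higher in 1 of 8 in INSL3-KO, and basal and squamous genes higher in 5 of 9 in INSL3-KI and higher in 4 and lower in 1 of 9 in INSL3-KO. The gubernaculum markers were lower in 7 and higher in 2 of 13 in INSL3-KI, and lower in 6 and higher in 2 of 13 in INSL3-KO. Of Sertoli cell genes 1 of 8 was higher in INSL3-KI, and 2 of 10 were higher and 1 lower in INSL3-KO, and of spermatogonial genes 2 were higher and 2 lower of 10 in INSL3-KI and 2 higher and 1 lower of 12 in INSL3-KO. Several of these shares lay near those of all genes. The epididymal, vas deferens and gubernaculum lists differed from WT in the same libraries as the duct genes, and the part of tissue makeup in the levels was not tested.

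**Figure D4:**
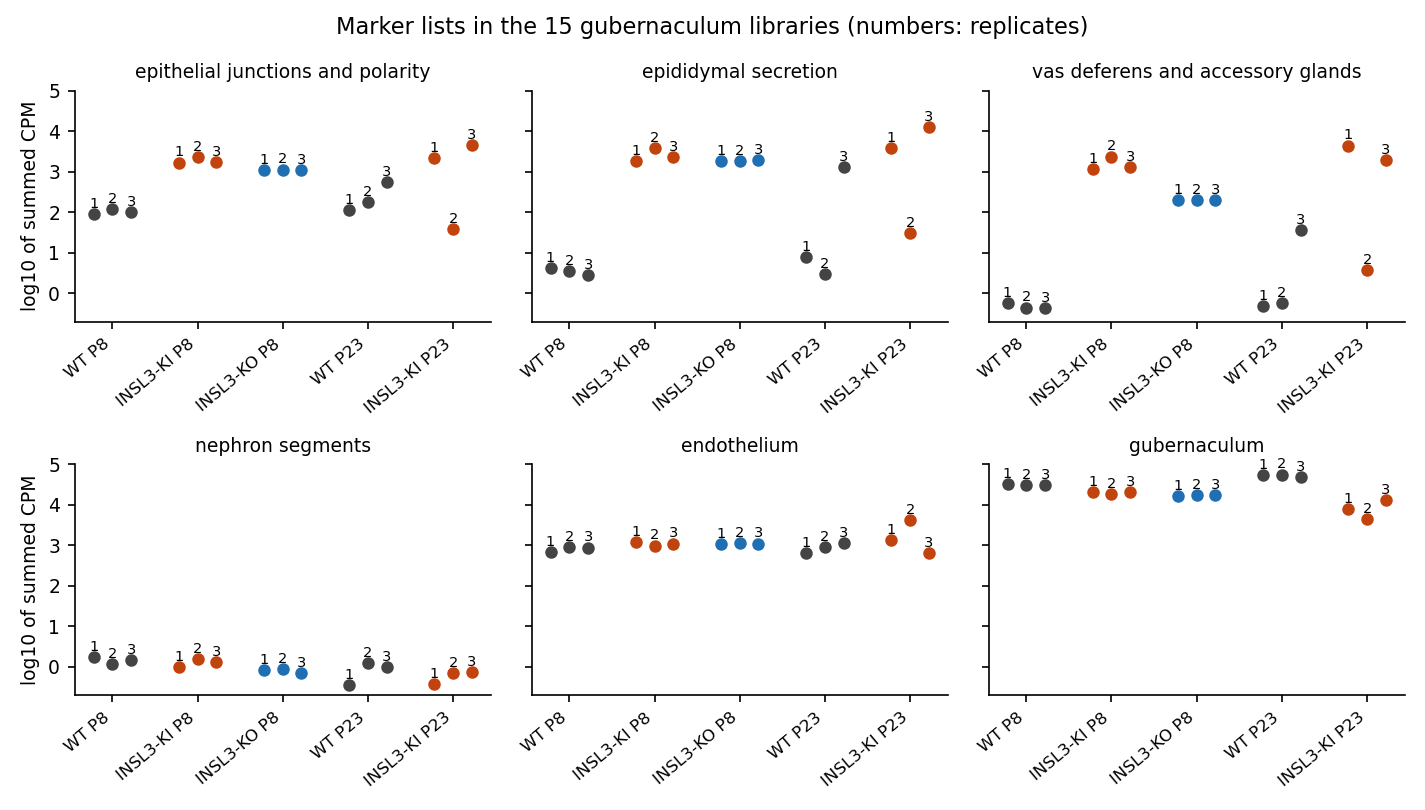
Summed CPM (log10 axis) of 6 marker lists in each of the 15 gubernaculum libraries, by group, with the replicate number above each point. Junction, epididymal and vas deferens genes are high in both P8 mutants and in INSL3-KI P23 replicates 1 and 3, nephron genes stay near or below 1.78 CPM, and the gubernaculum list is lower in the mutants.

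At P23 the picture depended on single libraries. Cdh1 was at 0.603, 1.66 and 31.0 CPM in WT and at 291, 0.117 and 406 CPM in INSL3-KI, and the other epithelial genes followed the same pattern. Epcam was at 0.121, 0.674 and 56.8 CPM in WT and at 269, 0.263 and 590 CPM in INSL3-KI, and Cdh16 at 0, 0.0562 and 5.93 CPM against 159, 0 and 141 CPM. Replicate 2 of INSL3-KI was low and replicate 3 of WT high in each of them, so the groups overlapped. Pax2 was at 0, 0 and 15.4 CPM in WT and at 74.4, 0.293 and 191 CPM in INSL3-KI, and Pax8 at 0, 0 and 8.28 CPM against 148, 0 and 206 CPM. Emx2 was at 13.8, 20.8 and 19.8 CPM in WT and at 91.2, 1.38 and 117 CPM in INSL3-KI. With all libraries, 0 of the 9 genes passed, where 2.57% of 15082 genes passed. In the edgeR fit 1 of the 9 had an unadjusted p under 0.05, and by DESeq2 0 passed. That gene was Aqp2, the only one whose groups did not overlap, at 0.362, 0 and 0 CPM in WT and 28.9, 1.49 and 33.9 CPM in INSL3-KI (log2 fold change 7.03, SE 1.92, adjusted p = 0.063).

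Of the lists, 5 of 8 mesothelial genes (median log2 fold change -4.37) and 3 of 13 gubernaculum markers (Myod1, Myog and Pax7) were lower in INSL3-KI with all libraries, and 0 were higher. Over all 15082 genes tested, 355 were lower and 32 higher. Myod1, the myoblast determination factor, was at 88.8 ± 1.42 CPM in WT (SD, n = 3) and at 0 in each INSL3-KI library at P23.

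INSL3-KI replicate 2 and WT replicate 3 were then left out together, a choice made after seeing the data. Because they were picked by the level of these same genes, the omission sets the direction, and what follows is a description with no test. In that fit 6 of the 9 genes (Pax2, Pax8, Emx2, Cdh1, Epcam and Cdh16) were past the thresholds and higher in INSL3-KI, where 3.8% of all genes were past them and 1.65% were higher. The log2 fold change of Cdh1 was then 7.88 (SE 0.58), that of Epcam 9.66 (SE 0.93) and that of Emx2 2.20 (SE 0.25). No fold is given for Pax2, Pax8 and Cdh16, whose remaining WT libraries held 0 to 2 counts, under the floor. Under the same omission 12 of 28 junction genes, 6 of 13 epithelial regulators and keratins, 2 of 22 tubular transport genes and 2 of 11 epididymal genes were past the thresholds and higher, while 4 of 13 gubernaculum markers and 5 of 8 mesothelial genes (median -4.50) were lower, against 2.15% of all genes. The 2 libraries also stood apart in other lists. INSL3-KI replicate 2 held 4112 CPM of endothelial genes, against 1372 and 635 CPM in replicates 1 and 3, and 30.2 CPM of epididymal genes, against 3786 and 12952 CPM. WT replicate 3 held 1329 CPM of epididymal genes, against 7.72 and 2.95 CPM in replicates 1 and 2. The part of these differences between libraries in the P23 result was not tested.

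Sox17 stood apart from the epithelial genes at P23. It was at 24.6, 19.97 and 33.7 CPM in WT and at 32.6, 101 and 19.1 CPM in INSL3-KI, highest in the replicate 2 in which the epithelial genes were lowest and the endothelial list highest. Lhx1 stayed at 32, 26 and 6 counts in WT and 0, 0 and 28 counts in INSL3-KI.

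With age, Emx2 rose in WT gubernaculum from P8 to P23 by 1.46 on the log2 scale (SE 0.21, adjusted p = 0.0032), the only 1 of the 9 genes to pass, where 10.5% of 14941 genes passed and 6.17% were higher. It was 1.44 (adjusted p = 0.0077) without WT P23 replicate 3. Its call was lost without WT P8 replicate 1 (adjusted p = 0.017) or replicate 3 (adjusted p = 0.018), and without WT P23 replicate 2 (adjusted p = 0.011), where Sox17 passed instead. In INSL3-KI gubernaculum 0 of the 9 genes passed between the ages, as did 0% of all 15271 genes (1 of the 9 had an unadjusted p under 0.05 in edgeR, and 0 passed by DESeq2), and 0 of the 9 also passed without replicate 2. Aqp2 and Cdh16 lay lower at P23 without overlap, with log2 fold changes of -3.06 (adjusted p = 0.2) and -0.79 (adjusted p = 0.83). Relative to Cdh1, INSL3-KI replicates 1 and 3 at P23 held 0.0993 and 0.0834 Aqp2 counts per Cdh1 count, against 1.01 on average at P8, and 0.509 and 0.506 Pax8 counts, against 0.486. Cdh16 was at 0.547 and 0.347 per Cdh1 count in them, against 1.01 at P8, and Pax2 at 0.256 and 0.469, against 0.387. The difference between the effects of INSL3-KI at the ages passed in 0 of the 9 genes, where 0.281% of 16016 genes passed (1 of the 9 at an unadjusted p under 0.05 in edgeR, and 0 by DESeq2), and in 0 without the 2 libraries that stood apart.

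The testis served as the reference tissue, and it held several of these genes at moderate levels. In WT P8 testis Epcam was at 42.1, 86.4 and 108 CPM, Cdh1 at 9.92, 25.2 and 39.6 CPM, Pax8 at 4.35, 9.92 and 15.4 CPM and Pax2 at 4.84, 9.66 and 12.3 CPM. In WT the gubernaculum was lower than the testis in 6 of the 9 genes and higher in 1, where 28.4% of 15624 genes passed, 14.3% lower and 14.1% higher. Epcam differed by -5.39 (adjusted p = 0.00011), Pax8 by -6.10 (adjusted p = 0.0007), Pax2 by -6.08 (adjusted p = 0.0018), Cdh1 by -3.95 (adjusted p = 0.001) and Lhx1 by -3.63 (adjusted p = 0.0096), and Aqp2 was at least 83.2-fold lower. Sox17 was higher by 1.32 (adjusted p = 0.0064). With the replicate number as a block 4 genes passed (Pax8, Cdh1, Epcam and Aqp2), and Pax2 (adjusted p = 0.01), Lhx1 (adjusted p = 0.033) and Sox17 (adjusted p = 0.015) did not. Without any 1 of the gubernaculum libraries or testis replicate 2, Sox17 did not pass either (adjusted p up to 0.026), and without gubernaculum replicate 1 the fitted value of Pax2 was -11.19, with WT gubernaculum at 0.

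In INSL3-KI this order turned. There 8 of the 9 genes passed (37.2% of 15998 genes passed, 19.9% higher and 17.3% lower), and 7 of them, Pax2 (3.76), Pax8 (4.06), Emx2 (4.56), Cdh1 (4.02), Epcam (1.91), Aqp2 (5.31) and Sox17 (1.91), were higher in gubernaculum on the log2 scale, with Lhx1 lower (-4.34). In INSL3-KO 8 of the 9 passed (43.7% of 16133 genes, 22.9% higher and 20.8% lower), with Pax8 (1.75), Emx2 (2.997), Cdh1 (2.93), Epcam (1.40), Cdh16 (1.84) and Sox17 (2.54) higher in gubernaculum and Lhx1 (-1.24) and Aqp2 (-2.63) lower. The calls of Lhx1 rested on few counts, and each was lost without certain single libraries (adjusted p up to 0.034 for WT, 0.022 for INSL3-KI, 0.019 for INSL3-KO) and with the block. In INSL3-KI the call of Emx2 was lost as well without testis replicate 1 or any 1 of the gubernaculum libraries (adjusted p up to 0.015). At P23, 0 of the 9 genes passed between the tissues in INSL3-KI (36.2% of 16496 genes passed, 6 of the 9 genes had an unadjusted p under 0.05 in edgeR, and 5 passed by DESeq2), and 7 were past the thresholds without gubernaculum replicate 2 (35.6% of all genes, 14.2% higher), a description only, since that library was picked by these genes.

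**Figure D5:**
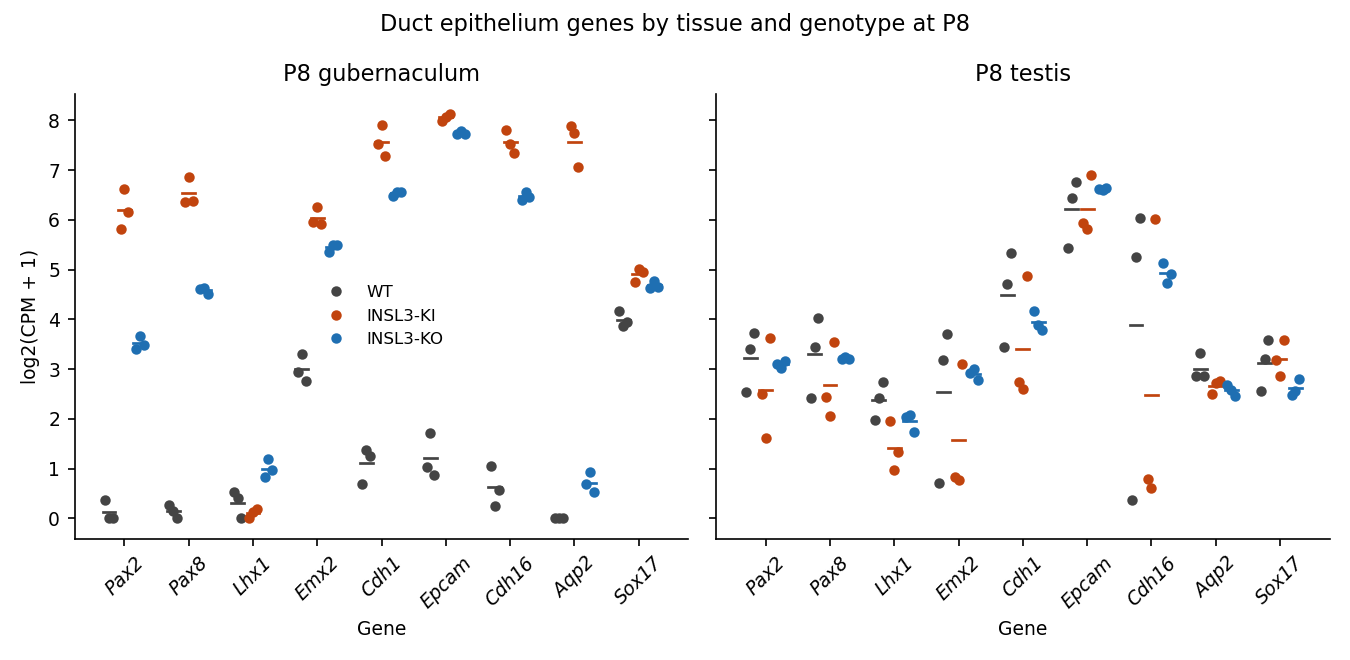
Level of each duct gene, as log2(CPM + 1), in P8 gubernaculum (left) and P8 testis (right) for WT, INSL3-KI and INSL3-KO; points are libraries and lines the mean of 3. In gubernaculum the mutants stand above WT in 7 genes, with Aqp2 in INSL3-KO only just, whereas in testis the genotypes overlap or lie close.

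In P8 testis itself 0 of the 9 genes passed in INSL3-KI against WT (6.29% of 15702 genes passed; 1 of the 9 at an unadjusted p under 0.05 in edgeR, and 0 passed by DESeq2) and 0 in INSL3-KO against WT (13.8% of 15723 genes; 2 of the 9 at an unadjusted p under 0.05, and 0 by DESeq2). The P8 testis libraries varied widely among themselves. Cdh16 was at 0.292, 37.2 and 65.2 CPM in WT and at 0.720, 0.531 and 63.9 CPM in INSL3-KI, and Emx2 at 0.642, 8.05 and 12.0 CPM in WT and 0.778, 0.719 and 7.54 CPM in INSL3-KI. The libraries low in both genes were WT replicate 1 and INSL3-KI replicates 1 and 2. Crisp1, the epididymal gene, was low in the same libraries, with 0, 1309 and 1785 counts in WT testis and 4, 11 and 3970 counts in INSL3-KI, and its part in these levels was not tested. INSL3-KO testis was even, with 34.2, 25.7 and 29.1 CPM of Cdh16 and 3800 to 4340 counts of Crisp1.

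A test of the difference between tissues, chosen after seeing the data, passed in 5 of the 9 genes for INSL3-KI (21.8% of 16626 genes, 12.9% in this direction) and in 6 of the 9 for INSL3-KO (20.2% of 16671 genes, 9.89% in this direction), each with the larger effect in gubernaculum. For Pax8 the effect of INSL3-KI was larger in gubernaculum than in testis by 10.25 (SE 0.97, adjusted p = 1.8e-05) and that of INSL3-KO by 7.86 (adjusted p = 1.3e-05) on the log2 scale. Cdh16 did not pass for INSL3-KI (8.79, adjusted p = 0.016), nor Emx2 for either mutant (4.20, adjusted p = 0.023, and 2.55, adjusted p = 0.032). Leaving out 1 library at a time gave 5 to 7 genes for INSL3-KI and 5 to 8 for INSL3-KO.

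In later testes the genes that passed were lower in INSL3-KI and went both ways in INSL3-KO. These counts lay near the shares of all genes or below them. In P23 INSL3-KI testis Lhx1 (-1.95) and Emx2 (-2.30) were lower than in WT, 2 of the 9 genes, where 20.6% of 16603 genes passed and 11.8% were lower, and here the genotypes stood in different tables. That count was 0 without any 1 of the WT replicates or without INSL3-KI replicate 1. In P23 INSL3-KO testis 7 of the 9 passed, where 64.4% of 16732 genes did (31.1% higher and 33.4% lower), with Pax8 (2.20), Cdh1 (1.40) and Aqp2 (1.14) higher and Pax2 (-1.45), Lhx1 (-1.84), Emx2 (-2.86) and Sox17 (-2.01) lower. Aqp2 was at 25.1, 24.3 and 22.1 CPM there, against 5.92, 8.02 and 6.85 CPM in WT. At P40, Emx2 (-3.12) and Sox17 (-1.96) were lower in INSL3-KI testis, where 47.7% of 16677 genes passed and 22.1% were lower.

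The genes most like each member over the 15 gubernaculum libraries were named by Pearson's r of log2(CPM + 1), as a description. Cdh1 and Epcam followed each other (r = 0.99), as did Pax2 and Pax8 (r = 0.985), while Sox17 and Lhx1 followed neither (Sox17 with Cdh1 0.047, Lhx1 with Cdh1 -0.004). Pax2 was most like Cds1 (r = 0.991), Ap1s3, Ltf, Krt15 and St14, and the genes most like Pax8 included Zfp750, Plch1, St14 and Akr1b7. The neighbours of Emx2 were the simple keratins Krt18 (r = 0.987) and Krt8, then Rnf128, Mpzl2 and Sim1. For Cdh1 they were Cldn7 (r = 0.997), Esrp1, Pdzk1ip1, Ap1m2 and Cldn4, for Epcam they included Esrp1 (r = 0.996), Shh, Cldn8 and Cldn7, and for Cdh16 Mal2 (r = 0.994), Igsf5, Dsg2, Foxf2 and Irx2. Aqp2 was most like the other water channels Aqp3 (r = 0.983) and Aqp5 (r = 0.975), then Nrtn, Prima1 and Trim41. Sox17 was most like Cyyr1 (r = 0.942), Gpr4, Ccm2l, Cyp4b1 and Esam, the last an endothelial adhesion gene. For Lhx1, Scnm1 (r = 0.879), D8Ertd738e, Cbwd1, Smim11 and Srp14 came first, all with lower r. Scnm1 was at 21.4 to 21.7 CPM in the second-table gubernaculum libraries and at 11.9 to 22.9 CPM in the first, and the table and the likeness cannot be told apart there. The 15 libraries share the 2 that stood apart, which weigh on each of these values.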

How the data were processed

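RNA of gubernaculum and testis was extracted with TRIzol, made into libraries with the Hieff NGS Ultima Dual-mode mRNA kit and sequenced as 150 bp paired-end reads on a NovaSeq. Reads were mapped by the authors with HISAT2, to GRCm38 per the labels, on the BMKCloud platform. The annotation, the counting tool, the strand setting and the tool versions are not given in the sources used here. The authors deposited raw counts per gene in 2 tables, the first with 27 libraries and the second with 12, and the deposited FPKM values stand beside them. The tables were joined on 21561 shared Ensembl genes. Levels are CPM of the shared genes (mean ± SD, n = 3).

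Counts were tested with edgeR 4.0.16 in R 4.3.3, with the quasi-likelihood test, TMM scaling, filterByExpr (minimum count 10, minimum total 15) with p-values adjusted by Benjamini-Hochberg over every gene in the fit. Each fit held only the groups compared. The thresholds were an adjusted p under 0.01 and at least 2-fold, as the study set with DESeq2. Fold changes of the main edgeR fits are TMM-scaled and need not equal ratios of CPM. The lower bounds, from a floor of 3 counts per library, are ratios of mean CPM without TMM. The fits were tested on simulated data. DESeq2 1.42.0, limma 3.58.1 on log2(FPKM + 1) and log2(FPKM + 0.1), library size scaling, no filter, a replicate block, 1 fit over all gubernaculum groups and leaving out each library were alternatives. Ratios to Cdh1 used libraries with at least 100 Cdh1 counts.

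The members and the 14 gene lists were chosen with earlier results of these data known. All members were named. From each list, up to 4 called genes with the largest fold change and no overlap between groups could be named, and for each member the 5 genes with the highest r over 15 libraries (mean of at least 1 CPM). Some genes that this rule names are not reported here. The motifs, the tests between tissues and the omission of 2 P23 libraries were chosen after seeing the data. No 2 replicates agreed within sampling noise, and same-numbered samples were not paired by the labels or by their correlations. Total counts limit precision for counting error only. The sequences are from RefSeq.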

Additional observations from a re-analysis of the deposited data

Results flagged for a closer look

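At P8 the effect of a mutant genotype differed between gubernaculum and testis in these genes by the edgeR quasi-likelihood test of the interaction, a test chosen after seeing the data. For INSL3-KI the effect in gubernaculum was larger by 9.93 for Pax2 (SE 1.17, adjusted p = 7.3e-05), by 10.25 for Pax8 (SE 0.97, adjusted p = 1.8e-05), by 8.06 for Cdh1 (SE 1.03, adjusted p = 0.00013) and by 7.40 for Epcam (SE 0.62, adjusted p = 7.8e-06) on the log2 scale. For Aqp2 it was larger by at least 11.56, computed against the floor of 3 counts per WT gubernaculum library (adjusted p = 4.7e-07). For INSL3-KO the difference was 6.83 for Pax2 (adjusted p = 0.00013), 7.86 for Pax8 (adjusted p = 1.3e-05), 6.88 for Cdh1 (adjusted p = 9.4e-06), 6.80 for Epcam (adjusted p = 2.2e-06) and 7.30 for Cdh16 (adjusted p = 0.0027). For Aqp2 it was at least 3.46 (adjusted p = 4.8e-05). Leaving out 1 library at a time gave 5 to 7 genes for INSL3-KI, with 7 without WT testis replicate 1 or INSL3-KI testis replicate 3, and 5 to 8 for INSL3-KO, with 8 without WT testis replicate 1 and 5 without WT gubernaculum replicate 2, where Cdh16 was lost (adjusted p = 0.01). Without WT gubernaculum replicate 1, the only WT gubernaculum library with Pax2 counts at P8, the fitted values of Pax2 moved to 14.97 and 12.04. In each of them the 3 mutant gubernaculum libraries stood above the 3 WT libraries, and for INSL3-KO the 2 genotypes also stood in different tables. The part of the uneven P8 testis libraries in these values was not tested.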

How the results depend on the processing

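The values set against alternatives were the counts of members passing and the fold changes of members and of named list genes. In some comparisons only the members called entered. Of these values 2861 kept their direction and side of the threshold or, for counts, stayed within 1.5 times. Another 315 were weaker, 26 stronger, 25 counts moved by over 1.5 times and 4 values reversed, none of the latter called. With all gubernaculum groups in 1 fit, 2 members passed at P8 in INSL3-KI against WT, 0 in INSL3-KO against WT, 1 in INSL3-KI against INSL3-KO, 1 at P23 and 0 with age in WT. Leaving out P23 INSL3-KI replicate 2 and WT replicate 3 gave 6 at P23, a description only, since those libraries were picked by these genes. Scaling by library size only moved the median of all genes at P8 to 0.34 (INSL3-KI against WT), 0.20 (INSL3-KO against WT) and 0.18 (INSL3-KI against INSL3-KO) and at P23 to 0.41, and the share of calls that were higher from 59.82% to 73.51%, from 50.48% to 60.37%, from 53.06% to 67.05% and from 8.269% to 19.37%. The members called at P8 against WT stayed 7 and 7 under it, and in P23 INSL3-KI testis 1 passed. DESeq2 called 5 in P23 INSL3-KI gubernaculum against testis. Limma on log2(FPKM + 1) called 1 in P23 INSL3-KO testis and 1 in P40 testis, and on log2(FPKM + 0.1) 1 in P40 testis.

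With the replicate number as a block, 0 members passed with age in WT, 4 in WT gubernaculum against testis, 1 in P23 INSL3-KI gubernaculum against testis and 0 in P23 INSL3-KI testis. Same-numbered samples shared only a number. At P8 the block gave 7 in INSL3-KI and 6 in INSL3-KO against WT.

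Leaving out 1 library at a time gave 7 to 7 members in P8 INSL3-KI against WT, 6 to 7 in INSL3-KO against WT, 3 to 6 between the mutants, 0 to 1 at P23 (1 without INSL3-KI replicate 2), 0 to 1 with age in WT, 5 to 7 in WT gubernaculum against testis and 0 to 7 in P23 INSL3-KI gubernaculum against testis (7 without gubernaculum replicate 2). It gave 0 to 1 in P8 INSL3-KO testis (1 without WT replicate 1), 0 to 3 in P23 INSL3-KI testis, 6 to 7 in P23 INSL3-KO testis and 2 to 3 in P40 testis. Sox17 reversed to -0.011 between the mutants without INSL3-KI replicate 2 (highest value 0.12), and at P23 to -0.39 without INSL3-KI replicate 2 (highest 1.14) and to -0.18 without both libraries. Emx2 reversed to -0.097 in WT gubernaculum against testis without testis replicate 1 (highest 1.10). The causes were not tested. Depth limited Lhx1, whose counts stayed low in gubernaculum, and 3 libraries per group limit every test.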
